A study of Mus musculus with 27 samples.

Results

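Chromatin at 10 fatty acid oxidation genes was described in cultured mouse primary hepatocytes, the main parenchymal cells of the liver. The genes were taken from a fixed list of names: Acadvl, Acadl, Acadm, Hadha, Hadhb, Cpt1a, Slc25a20, Ehhadh, Pdk4 and Fgf21. All 10 were found among 21887 coding genes with coordinates on the mouse assembly GRCm38.p6, which mm10 names. The genes were selected on their function and on the presence of peaks at some of them in these same lists, above all H3K27ac peaks of hepatocytes lacking Acly. Their counts are therefore descriptions and carry no test.

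The study compared wild-type mice (WT) with mice carrying a floxed Acly gene and Alb-cre, labelled AclyKO in the hepatocyte samples (KO). In the latter the albumin promoter drives Cre in hepatocytes. Acly encodes ATP citrate lyase, which makes acetyl-CoA, the donor for histone acetylation, from citrate outside mitochondria. WT hepatocytes were cultured in normoxia or in hypoxia-reperfusion (HR), starting 24 hours after isolation, and KO hepatocytes are represented here in HR alone. Sites were mapped by CUT&RUN, in which an antibody directs cutting of DNA to the places that its target occupies, with antibodies against H3K27ac, against H3K9ac and against the FLAG tag in samples titled Acly (ACLY-FLAG, WT only). How the tag was introduced, and the age and sex of the mice, are not given in the sources used here, and the deletion of Acly was not checked in these lists. There was 1 library per antibody and condition, so no difference between conditions has a replicate check. The 3 IgG samples were not analysed here, and the 16 liver RNA libraries, deposited per transcript identifier, were not used for these genes.

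In a fasting liver, fatty acids are oxidised in mitochondria and peroxisomes, and the acetyl-CoA formed feeds ketone body synthesis. Long-chain acyl groups enter mitochondria through the carnitine shuttle and are then shortened in repeated cycles of dehydrogenation, hydration, a second dehydrogenation and thiolysis. PPAR-alpha, a nuclear receptor that binds fatty acids, is known to induce most of these genes as well as Pdk4 and Fgf21. H3K27ac and H3K9ac are acetylated forms of histone H3 found at active promoters, and H3K27ac also at active enhancers.

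The lists of the genotypes did not have the same form. H3K27ac peaks numbered 5655 in WT normoxia, 8252 in WT HR and 14418 in KO HR, with median widths of 10340, 7410 and 3845 bp. H3K9ac peaks numbered 6513, 7593 and 8837, with median widths of 7790, 6400 and 2961 bp. At least 99.98% of the peaks in each WT list had both ends on a grid of 10 bp, against 0.943% and 1.01% in the KO lists. More peaks in the KO H3K27ac list did not mean more sequence, since KO HR peaks covered 81.0 Mb and WT HR peaks 87.5 Mb. For H3K9ac the covered lengths were 30.3 Mb in KO HR and 57.8 Mb in WT HR. Genotype, library and the way a list was made cannot be told apart. Of 10 hepatocyte markers, 9 had an H3K27ac peak in each condition. Of 25 markers of other liver cells, 3 had one in WT normoxia, 3 in WT HR and 5 in KO HR.

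H3K27ac stood at 4 of the 10 genes in WT normoxia, 5 in WT HR and 9 in KO HR. A gene was counted where a peak shared at least 1 base with it or with the 1 kb on either side. By the same rule the mark stood at 22.6%, 30.3% and 37.9% of all coding genes. H3K9ac stood at 4, 5 and 7 of the 10, against 31.9%, 36.4% and 35.9% of all coding genes. ACLY-FLAG stood at 7 of the 10 in WT HR, against 13.2% of all coding genes. The WT normoxia ACLY-FLAG list held 1 peak in all, on chromosome 9 and outside every coding gene, so none of the 10 had one (0.0% of coding genes). That peak was 38570 bp wide, where the 3666 peaks of WT HR had a median of 1730 bp. A list of this kind cannot show whether ACLY-FLAG was absent from these genes in normoxia. The marks went together in WT cells, at the same 4 genes in normoxia and the same 5 in HR. Of all coding genes with H3K27ac, H3K9ac stood at 88.6% in WT normoxia, 90.1% in WT HR and 83.5% in KO HR. Acadm, Hadha, Hadhb and Cpt1a carried both marks in every condition. Acadl had them in WT HR and KO HR and not in WT normoxia. KO cells were not sampled in normoxia, so "in HR only" below means in both HR lists and not in WT normoxia. Acadvl, Slc25a20, Ehhadh and Fgf21 had acetylation in KO HR only, as had 4.44% of coding genes, and Pdk4 had none in any list.

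**Figure D1:**
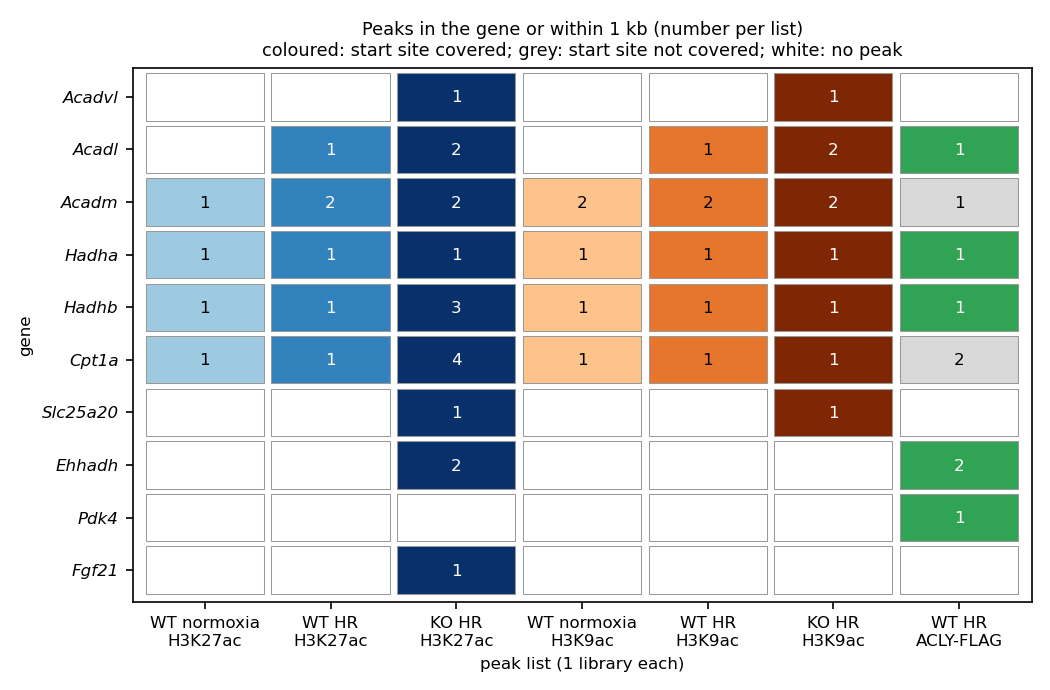
Number of peaks in each gene or within 1 kb of it, by gene (vertical axis) and peak list (horizontal axis, 1 library each). Coloured cells have a peak over the start site, grey cells have peaks that miss it, and white cells have no peak: 4 genes are filled in all 6 acetylation lists, and Pdk4 only in the ACLY-FLAG list.

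The very-long-, long- and medium-chain acyl-CoA dehydrogenases, which catalyse the first step of each cycle, had 3 different patterns. Acadm, for medium chains (chr3:153922353-153944643), was marked throughout. Its WT normoxia H3K27ac peak was 19660 bp wide and ranked 1095 of 5655 by the authors' total signal, the sum over the peak. In WT HR 2 peaks of 8290 and 7110 bp stood in its place, and in KO HR 2 peaks of 7730 and 6257 bp. The part of the gene covered was 80.5%, 63.0% and 56.7%, in that order. In both HR lists the stronger peak lay within the gene. The highest signal was 15133 to 15142 bp past the start site in both WT conditions and 12916 bp past it in KO HR. H3K9ac peaks lay at both places in all 3 conditions, the promoter peak being the weaker by total signal. By maximum signal the promoter peak was the stronger, at ranks 4916 (WT normoxia), 5737 (WT HR) and 3961 (KO HR). The inner peak ranked 5918, 6538 and 7729 by that measure. ACLY-FLAG had a peak of 790 bp from 853 to 1642 bp past the start site, inside the acetylated region.

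Acadl, for long chains (chr1:66830839-66863309), had no acetylation peak in WT normoxia, where the nearest lay 11179 bp (H3K27ac) and 10939 bp (H3K9ac) past the end of the gene. In WT HR an H3K27ac peak of 4940 bp (rank 5122 of 8252) and an H3K9ac peak of 5640 bp (rank 3801 of 7593) covered its start site. In KO HR the start site was covered by peaks of 3534 bp (H3K27ac, rank 5682 of 14418) and 3479 bp (H3K9ac, rank 3419 of 8837). KO HR also had a second peak of each mark inside the gene, with H3K27ac from 22617 to 26523 bp and H3K9ac from 22432 to 25901 bp past the start site. WT HR had no peak there. The ACLY-FLAG peak ran from 821 bp before to 878 bp past the start site and ranked 767 of 3666, and it lay wholly within the WT HR peaks of both marks. Acadl was the one member at which the presence of acetylation differed between the WT conditions. Of coding genes without the mark in WT normoxia, 10.8% had H3K27ac and 8.7% had H3K9ac in WT HR. The 250 bases before its start site (chr1:66863310-66863559, minus strand, GRCm38.p6, RefSeq) are shown with GC boxes, GGGCGG on either strand, in capitals.
Acadl: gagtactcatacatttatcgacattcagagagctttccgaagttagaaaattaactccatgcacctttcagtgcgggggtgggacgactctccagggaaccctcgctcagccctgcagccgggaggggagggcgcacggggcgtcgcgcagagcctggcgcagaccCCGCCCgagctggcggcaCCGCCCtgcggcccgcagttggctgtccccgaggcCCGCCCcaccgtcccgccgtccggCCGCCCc

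Acadvl, for very long chains (chr11:70010183-70015428), had acetylation in KO HR alone. The H3K27ac peak there was 1616 bp wide and ran from 39 bp before to 1576 bp past the start site. It ranked 9884 of 14418. The H3K9ac peak spanned 39 bp before to 1508 bp past the start site, and ranked 8743 of 8837 by total signal and 5177 by maximum signal. In WT HR the nearest H3K27ac peak lay 7873 bp past the end of the gene and covered Ctdnep1, Dvl2, Gabarap and Phf23, and ACLY-FLAG came no nearer than 28493 bp.

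Hadha and Hadhb encode the subunits of the mitochondrial trifunctional protein, which carries out the later steps of the cycle on long chains. They lie head to head, with 272 bases between their start sites, and share their promoter peaks, so the 2 are not independent. With the pair counted once, H3K27ac stood at 3, 4 and 8 of 9 loci, H3K9ac at 3, 4 and 6, and ACLY-FLAG in WT HR at 6. By total signal they had the strongest peak of the 10 genes in each acetylation list. By maximum signal Acadm stood above them in KO HR H3K27ac, at rank 1365 against 1672. The shared H3K27ac peak was 33500 bp wide in WT normoxia (chr5:30144821-30178320, rank 602 of 5655) and 36760 bp in WT HR (rank 447 of 8252). In KO HR the shared peak was 14286 bp wide (rank 1051 of 14418), and a separate peak of 11935 bp lay inside Hadhb, within the span of the single WT peaks. A further KO HR peak, of 3837 bp, began past the end of Hadhb, within the 1 kb. The H3K9ac peak was narrower, at 10450 bp in WT normoxia, 7540 bp in WT HR and 6237 bp in KO HR, and ranked 1438, 1266 and 489 in its list. The ACLY-FLAG peak was 2410 bp wide, with its highest signal 38 to 57 bp past the start site of Hadhb, and ranked 1948 of 3666. The highest H3K27ac signal of WT cells lay between the start sites. It is in capitals in the 250 bases before Hadhb (chr5:30155003-30155252, plus strand, GRCm38.p6, RefSeq), the first run being that of WT HR and the second that of WT normoxia.
Hadhb: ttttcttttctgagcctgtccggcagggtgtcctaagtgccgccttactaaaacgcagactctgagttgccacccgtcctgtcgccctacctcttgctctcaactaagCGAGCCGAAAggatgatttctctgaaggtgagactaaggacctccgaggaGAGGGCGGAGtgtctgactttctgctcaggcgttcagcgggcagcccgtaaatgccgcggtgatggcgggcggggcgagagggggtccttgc

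Cpt1a and Slc25a20 belong to the carnitine shuttle, Cpt1a as the rate-limiting acyltransferase of the outer mitochondrial membrane and Slc25a20 as the carrier of acylcarnitines across the inner one. Cpt1a (chr19:3322326-3385735) was marked in all conditions, and its start site in the promoter table lies 975 bp inside the annotated gene. Its H3K27ac peak was 8550 bp wide in WT normoxia (rank 3866 of 5655) and 20250 bp in WT HR (rank 1955 of 8252), where it reached 15909 bp past the start site. In KO HR 4 H3K27ac peaks of 8398, 6384, 6179 and 3308 bp were spread over the gene as far as 32293 bp. The second of these lay within the span of the WT HR peak, and the last 2 lay beyond it. H3K9ac had 1 peak per list, of 8780, 9110 and 3860 bp, and the KO HR peak began 16 bp before the start site whereas those of WT began at least 5040 bp before it. Cpt1a had the strongest ACLY-FLAG peak of the 10 genes by total and by maximum signal. By total signal it ranked 25 of 3666, which is within the top 0.682% of the list (chr19:3324951-3328070). That peak was 3120 bp wide and lay 1650 to 4769 bp past the start site, inside the gene. A weaker one of 2090 bp (rank 2948) followed 8420 to 10509 bp past it.

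Slc25a20 (chr9:108662136-108684642) had no peak by the counting rule in WT cells and 1 of each mark in KO HR. The KO HR H3K27ac peak (2680 bp, rank 8625 of 14418) ran from 581 bp before to 2098 bp past the start site, and the H3K9ac peak (1601 bp, rank 6441 of 8837) from 173 bp before to 1427 bp past it. The WT lists came closest to the limit of 1 kb here. An H3K27ac peak over Prkar2a began 1399 bp past the end of Slc25a20 in normoxia and 1089 bp past it in HR, so a slightly wider window would have counted the gene in WT as well. That peak is at the far end from the promoter, which no WT acetylation peak reached. No ACLY-FLAG peak lay within 98339 bp. The 250 bases before the start site (chr9:108661886-108662135, plus strand, GRCm38.p6, RefSeq) lie wholly under the KO HR H3K27ac peak and partly under the H3K9ac peak, and are shown with GC boxes in capitals.
Slc25a20: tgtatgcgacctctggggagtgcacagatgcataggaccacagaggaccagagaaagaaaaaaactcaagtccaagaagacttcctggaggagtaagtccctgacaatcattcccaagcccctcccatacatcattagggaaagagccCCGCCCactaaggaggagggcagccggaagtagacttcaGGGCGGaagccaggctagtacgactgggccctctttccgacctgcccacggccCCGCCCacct

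Ehhadh encodes the bifunctional enzyme of peroxisomal oxidation and is a classic PPAR-alpha target. It was the gene at which ACLY-FLAG in WT HR and H3K27ac in KO HR met without acetylation in WT (chr16:21761285-21787834). ACLY-FLAG had 1 peak over the start site, from 1016 bp before to 923 bp past it (rank 2255 of 3666), and 1 inside the gene, from 4534 to 7693 bp past it (rank 2226). By maximum signal the first ranked 2599 and the second 3634, near the end of the list. KO HR H3K27ac had 2 peaks at the same places, from 1210 bp before to 1956 bp past the start site (rank 13058 of 14418) and from 4116 to 8101 bp past it (rank 10233). Each ACLY-FLAG peak lay wholly within the KO HR peak at its place. Of the 1504 ACLY-FLAG peaks without WT acetylation, 200 (13.3%) shared a base with a KO HR H3K27ac peak. H3K9ac was absent from the gene in all 3 conditions. In WT HR both marks had a peak upstream, ending 4247 bp (H3K27ac) and 4737 bp (H3K9ac) short of the start site. KO HR had both marks upstream too. Its H3K27ac peak there ran from -7.685 to -4.868 kb (negative before the start site), and its H3K9ac peak ended 5204 bp short of it.

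Pdk4 encodes a kinase that switches off pyruvate dehydrogenase and so spares glucose while fat is burned. It had ACLY-FLAG and no acetylation (chr6:5483351-5496278). The ACLY-FLAG peak was 1690 bp wide, from 1382 bp before to 307 bp past the start site, and ranked 1053 of 3666. The nearest H3K27ac peak lay 38641 bp away in WT normoxia, 38811 bp in WT HR and 39220 bp in KO HR. An ACLY-FLAG peak without a peak in any of the 6 acetylation lists was found at 380 coding genes (1.74%). Coding genes with an ACLY-FLAG peak numbered 2881 (13.2%). At Ehhadh and Pdk4 the highest ACLY-FLAG signal fell in the 250 bases before the start site, and it is in capitals in both sequences (GRCm38.p6, RefSeq, minus strand, chr16:21787835-21788084 and chr6:5496279-5496528).
Ehhadh: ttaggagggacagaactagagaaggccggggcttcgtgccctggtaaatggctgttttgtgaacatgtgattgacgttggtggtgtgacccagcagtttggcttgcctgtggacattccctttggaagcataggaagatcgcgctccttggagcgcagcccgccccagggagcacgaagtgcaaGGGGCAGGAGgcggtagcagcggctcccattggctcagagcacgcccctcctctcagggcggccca
Pdk4: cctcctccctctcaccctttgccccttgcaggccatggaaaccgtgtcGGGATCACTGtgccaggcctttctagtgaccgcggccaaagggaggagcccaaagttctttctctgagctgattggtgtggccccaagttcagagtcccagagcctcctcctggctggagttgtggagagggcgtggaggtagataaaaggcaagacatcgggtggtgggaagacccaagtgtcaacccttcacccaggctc

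Fgf21 encodes a hormone that the liver secretes in fasting and stress. It had a single peak among all lists (chr7:45613890-45615490). This KO HR H3K27ac peak was 4922 bp wide, covered the whole gene and also lay over Fut1, and ranked 7604 of 14418. Its highest signal lay 1121 to 1135 bp before the start site. In WT cells no acetylation peak came within 86480 bp of Fgf21. Its gap to H3K27ac, 86510 bp in both WT lists, was the longest among the 10 genes. For H3K9ac the gap of Pdk4 was longer, at 705253 bp in WT normoxia and 183841 bp in WT HR. H3K9ac was absent in KO HR too, with its nearest peak 36990 bp away. Such H3K27ac without H3K9ac was seen at 16.5% of the coding genes with H3K27ac in KO HR, and Ehhadh and Fgf21 were the members that showed it. The 250 bases before the start sites of Acadvl and Fgf21 are shown (GRCm38.p6, RefSeq, minus strand, chr11:70015429-70015678 and chr7:45615491-45615740). At Acadvl the KO HR peaks reach only the last 39 of these bases, and at Fgf21 the KO HR peak covers them all. Capitals mark AGGTCA, the unit that many nuclear receptors bind, in Acadvl, and in Fgf21 TGATGCAAT, an element bound by C/EBP and ATF factors, read here on the other strand, followed by TATAAA, the TATA box.
Acadvl: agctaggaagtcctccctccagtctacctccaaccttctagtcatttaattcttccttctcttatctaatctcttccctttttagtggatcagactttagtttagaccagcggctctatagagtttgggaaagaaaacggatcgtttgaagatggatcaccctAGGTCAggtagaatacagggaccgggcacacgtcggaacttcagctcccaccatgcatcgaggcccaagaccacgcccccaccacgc
Fgf21: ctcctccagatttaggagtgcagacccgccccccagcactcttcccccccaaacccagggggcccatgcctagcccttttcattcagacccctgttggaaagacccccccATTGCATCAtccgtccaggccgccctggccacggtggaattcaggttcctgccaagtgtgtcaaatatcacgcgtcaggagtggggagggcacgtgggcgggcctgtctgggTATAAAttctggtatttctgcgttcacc

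**Figure D2:**
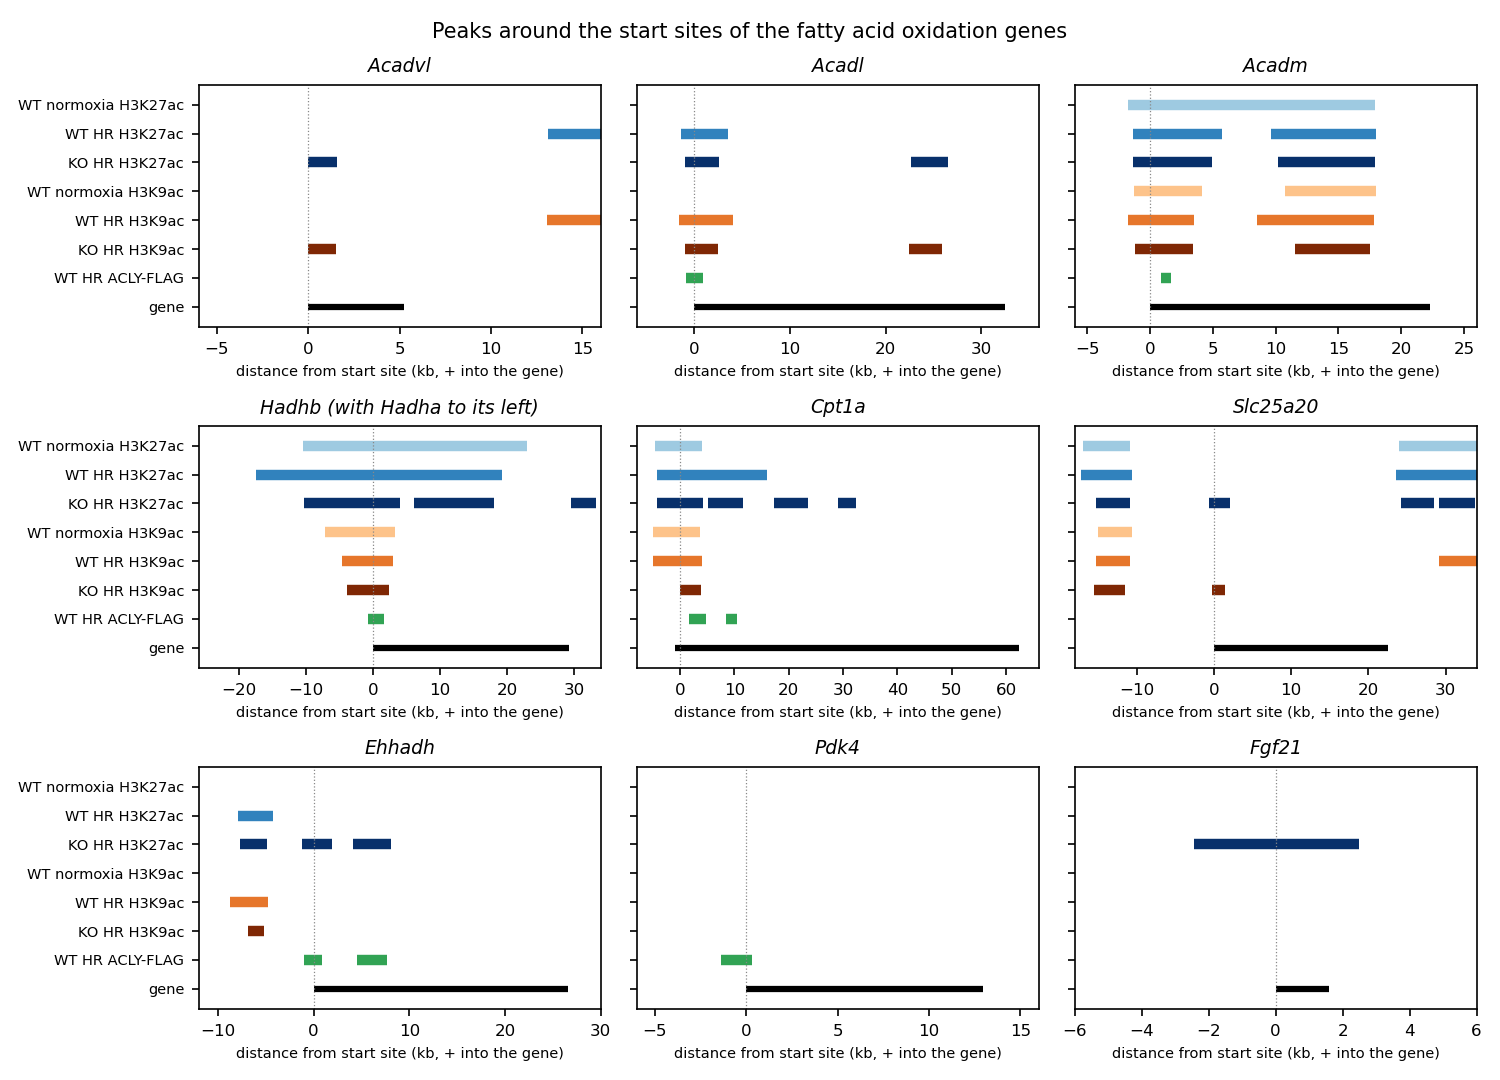
Peaks of 7 lists (rows) around each start site, by distance in kb on the horizontal axis, positive into the gene, with the gene as a black bar and Hadha lying to the left of Hadhb. Ehhadh has ACLY-FLAG and KO HR H3K27ac at the same 2 places, Pdk4 has ACLY-FLAG alone, and the KO HR peaks at Acadvl, Slc25a20 and Fgf21 cover the start site.

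The motifs were searched on both strands of the 250 bases before each start site. PPAR-alpha and its partner RXR bind a repeat of a short unit with 1 spacer base. Such a repeat, written as AGGNCA, any base and AGGNCA, was found in none of the 10 windows and in 0.338% of 32851 windows. AGGTCA was found in 3 of 10 (Acadm, Acadvl, Cpt1a) and in 14.0% of all windows. GGGCGG was found in 7 of 10 and in 32.7% of all, with 4 matches in Acadl and 3 each in Slc25a20 and Fgf21. TATAAA was found in Fgf21 alone of the 10 and in 12.4% of all, and TGATGCAAT in Fgf21 alone and in 0.167% of all. The windows are short, and no match says only that these letters are not in them. The motifs were chosen after the sequences were seen, so the shares beside them carry no test. The 32851 windows also outnumber the 17492 coding genes that have a window.

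ACLY-FLAG had 8 distinct peaks at the 10 genes, 5 of which shared bases with WT HR acetylation. Among all 3666 ACLY-FLAG peaks that share was 57.3%. The other 3 were those of Ehhadh and Pdk4. By position, the start site was covered at Acadl, Hadha, Hadhb, Ehhadh and Pdk4 and not at Acadm or Cpt1a, where the peaks lay inside the gene. Acadvl, Slc25a20 and Fgf21, which had acetylation in KO HR only, had no ACLY-FLAG peak. With the upper 50% of the list by total signal, 3 of 10 genes kept one, namely Cpt1a, Acadl and Pdk4, against 7.11% of all coding genes.

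**Figure D3:**
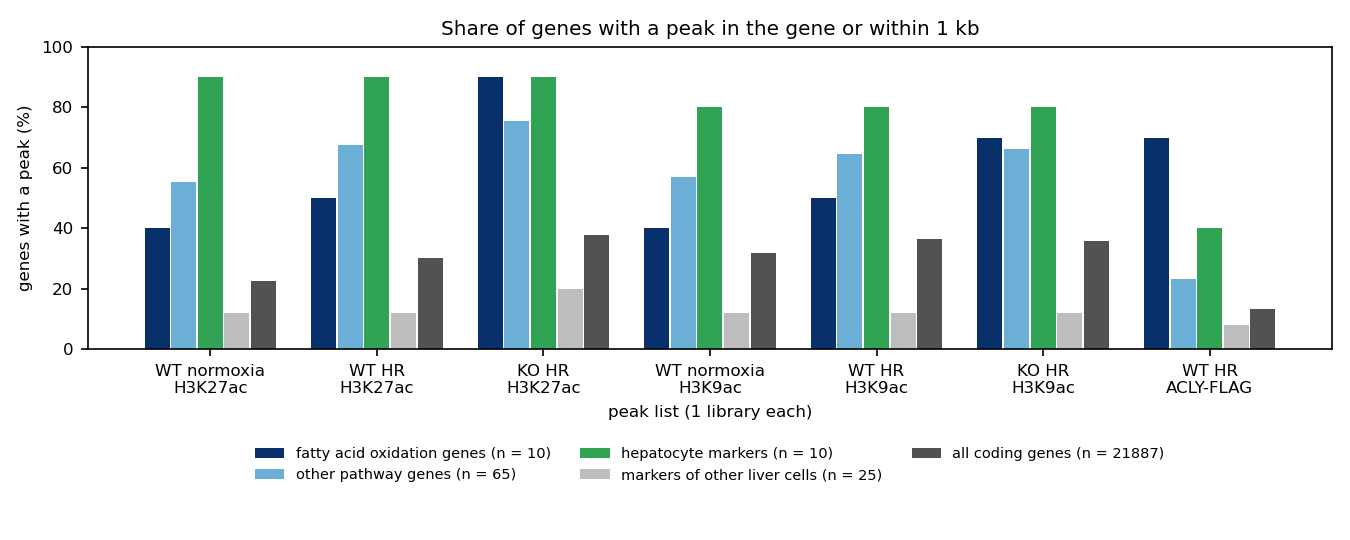
Percent of genes (vertical axis) with a peak in the gene or within 1 kb, in each of 7 peak lists (horizontal axis, 1 library each), for the 10 genes, 65 other genes of the pathway, 10 hepatocyte markers, 25 markers of other liver cells and all coding genes. The 10 genes go from 40.0% in WT normoxia to 90.0% in KO HR for H3K27ac, where the other pathway genes go from 55.4% to 75.4%. The 10 genes were selected in part on their KO HR H3K27ac peaks, so the difference in rise carries no test.

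Of the 5 genes without H3K27ac in WT HR, 4 had it in KO HR, against 11.9% of all coding genes without it in WT HR. Such KO HR peaks were part of how the genes were selected. Of the 5 without H3K9ac, 2 had it, against 5.44%. No member with a mark in WT HR lacked it in KO HR, which was seen at 2.22% (H3K27ac) and 10.9% (H3K9ac) of the coding genes that had the mark in WT HR. The 4 genes that had H3K27ac in KO HR alone, Fgf21, Slc25a20, Acadvl and Ehhadh, were the 4 of lowest rank by total signal in that list, with best ranks of 7604, 8625, 9884 and 10233. The WT HR list ends at 8252 peaks. When the KO HR list was cut to that number by total signal, 6 of 10 genes kept a peak, Fgf21 being the added one, against 5 in WT HR. The shares of all coding genes were 26.8% in the shortened KO HR list and 30.3% in WT HR. When every H3K27ac list was cut to 5655 peaks, the length of the shortest, the counts were 4 in WT normoxia, 5 in WT HR and 4 in KO HR, against 22.6%, 23.2% and 20.0% of all coding genes. Acadl then fell just outside in KO HR, at rank 5682. Cutting by the maximum signal of a peak to the same number gave 4, 4 and 6, against 22.6%, 24.4% and 21.1% of all coding genes, and Acadvl was then among the 6. By maximum signal the best KO HR H3K27ac ranks of Acadvl, Fgf21, Slc25a20 and Ehhadh were 4197, 7444, 8113 and 12782, so Acadvl stood above Cpt1a (4740) and Acadl (5308). The part of library depth and list length in the KO HR counts was not tested.

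**Figure D4:**
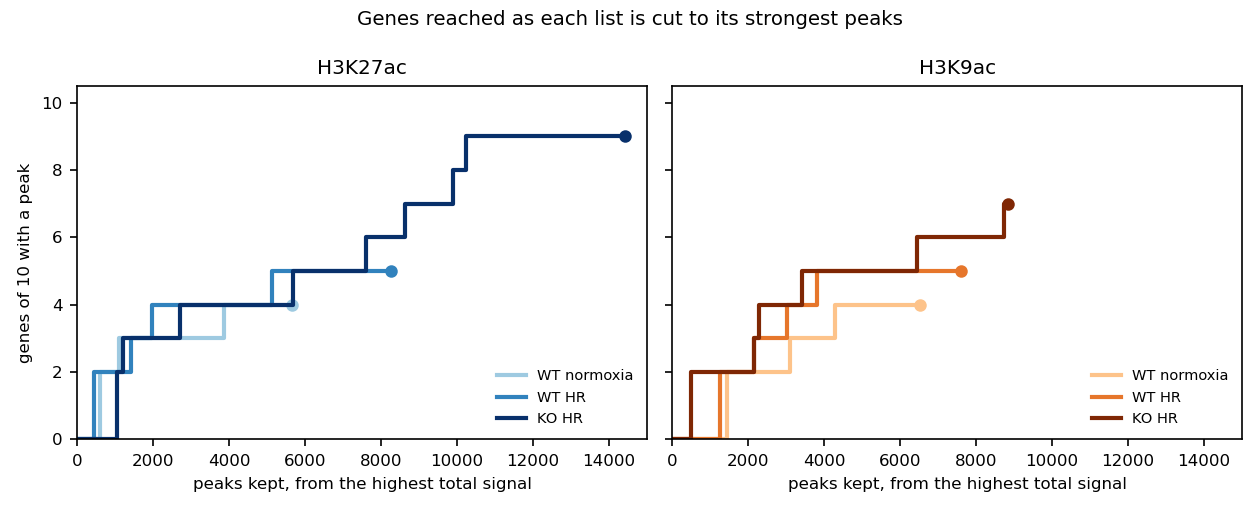
Number of the 10 genes with a peak (vertical axis) when only the peaks of highest total signal in a list are kept (horizontal axis), for H3K27ac and H3K9ac, with a dot where each list ends. Where the WT HR H3K27ac list ends, at 8252 peaks, the KO HR line stands at 6 genes and the WT HR line at 5, and the last 4 steps of the KO HR line come from 7604 to 10233 peaks.

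The median width of the distinct H3K27ac peaks at these genes was 19660 bp in WT normoxia (3 peaks), 8290 bp in WT HR (5 peaks) and 4454 bp in KO HR (16 peaks). For H3K9ac the medians were 7985 bp (4 peaks), 7540 bp (5 peaks) and 3669 bp (8 peaks). The peaks found in KO HR alone at Acadvl and Slc25a20, of 1548 to 2680 bp, were narrower than the median of their list. At the other genes with acetylation in KO HR alone, the H3K27ac peak of Fgf21, 4922 bp, was 1.28 times the list median, and the peaks of Ehhadh, 3986 and 3167 bp, were 1.04 and 0.824 times it.

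**Figure D5:**
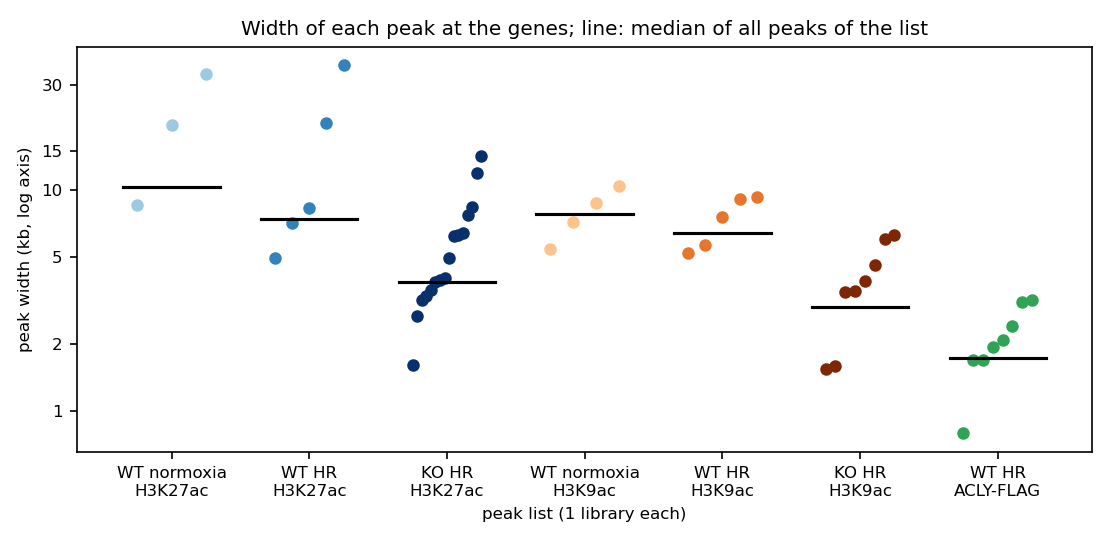
Width in kb (log axis) of each distinct peak at the 10 genes, by peak list (1 library each), with a line at the median width of all peaks of the list. KO HR peaks are more numerous and narrower than WT peaks, as are those of the whole KO lists.

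Other genes of the pathway, from lists chosen by function, were counted in the same way. Of 11 other genes of mitochondrial beta-oxidation, H3K27ac stood at 9 in WT normoxia and 10 in both HR lists. Acads, the dehydrogenase for short chains, had no peak of either mark in any condition. Acadsb, for short branched chains, had H3K27ac in HR only and H3K9ac in every condition. Eci1 and Decr1, auxiliary enzymes for unsaturated acyl groups, had H3K9ac in HR only and H3K27ac in every condition. Of 9 other genes of acyl activation and the carnitine shuttle, 6 had H3K27ac in WT normoxia and 8 in WT HR and KO HR. Crat and Fabp1, a carnitine acyltransferase and the liver fatty acid binding protein, made up the difference. Crat had H3K9ac in every condition and Fabp1 in none. Cd36, a fatty acid uptake receptor, had H3K9ac in KO HR alone and H3K27ac in every condition. Of 8 other peroxisomal genes, 4, 5 and 6 had H3K27ac, with Acaa1a, a thiolase, in both HR lists and Pex11a, which acts in peroxisome division, in KO HR alone. H3K9ac stood at Acaa1a in every condition and at Pex11a in both HR lists.

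Of the genes of ketone body metabolism counted, Acat1, a thiolase, had H3K27ac in all 3 conditions and H3K9ac in WT alone, and Bdh1, a dehydrogenase, had neither mark in any. Of 10 regulators, 7, 9 and 10 had H3K27ac. Ppara, Rxra, Esrra and Sirt3 had both marks in every condition. Ppargc1a and Ppargc1b, coactivators of PPAR-alpha, had H3K27ac in HR only, and Sirt1, a deacetylase, had it in KO HR only. H3K9ac stood at Ppargc1a, Ppargc1b and Sirt1 in every condition. Of 9 other PPAR-alpha targets, 3, 3 and 3 had H3K27ac. Plin2, Angptl4 and Cidec had it throughout, while Cyp4a10, Cyp4a14, Cyp4a12a, Cyp4a31, Vnn1 and Acot1 had neither mark in any list. Over all 65 other genes of the pathway H3K27ac stood at 36, 44 and 49 and H3K9ac at 37, 42 and 43, and of the 21 without H3K27ac in WT HR 5 had it in KO HR (23.8%). ACLY-FLAG stood at 15 of the 65 (23.1%), among them Echs1, Eci2, Acsl1, Acsl5 and Abcd3.

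Likeness was measured as the presence or absence over 7 lists, the 6 acetylation lists and WT HR ACLY-FLAG. The full pattern of Acadm, Hadha, Hadhb and Cpt1a was shared by 6.29% of coding genes and by 11 of the 65 pathway genes, Echs1, Eci2, Acsl1, Acsl5, Abcd3, Rxra, Lpin1, Nr1h4, Angptl4, Cidec and Acaca. The pattern of Acadl was shared by 0.228% of coding genes and, in the pathway, by Pdk2, a kinase of the same family as Pdk4. That of Fgf21 was found at 2.03% of coding genes and at Fgfr1 and Fgfr2, receptors of fibroblast growth factors. That of Pdk4 was found at 1.74% and at Decr2 and Pdp1. No other pathway gene had the pattern of Ehhadh (0.338% of coding genes) or that of Acadvl and Slc25a20 (0.731%).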

How the data were processed

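The 8 deposited peak lists, 1 per CUT&RUN library, give for each peak its position, the authors' total and maximum signal and the place of the maximum. For this signal no normalization is given in the sources used here, nor an aligner or peak caller. The submitters' processing notes name the build mm10 and the tools Trimmomatic and kallisto. Peaks were ranked by signal inside each list and not compared by it across lists. Lists were called per sample, and read depth is unknown.

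Peaks were overlapped with RefSeq coding genes of GRCm38.p6 (chromosomes 1 to 19, X and Y) extended by 1 kb, with at least 1 shared base, in Python 3.11.15 with pandas 2.3.3 and numpy 2.4.6. The overlap was tested on simulated intervals. Start sites, strands and promoter sequences came from RefSeq promoter windows, which matched all 10 genes and 17492 coding genes. With 1 library per condition no test was made. All 10 members were named, and other pathway genes where a mark differed between lists or their pattern matched a member's. Some other pathway genes whose marks were the same in every condition were named as well. The members, lists and motifs were chosen with earlier results of these data known, and the motifs after the sequences were seen. Some genes of the lists are not reported here and were left out of their counts. The RNA files identify transcripts only, and the reference tables pair none of these identifiers with a gene, so the planned RNA tests were not run. Alternatives were other windows, overlaps and list lengths.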

Additional observations from a re-analysis of the deposited data

How the results depend on the processing

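Of 47 values under alternatives to the counting rule, 8 could not move, since they come from the single ACLY-FLAG peak of WT normoxia or from a list cut to its own length. Of the other 39, 37 stayed within 1.5 times the main count, a band that still holds a fall from 9 to 6. The exceptions were the KO HR count of H3K27ac, 4 in place of 9 when each list was cut to the length of the shortest by total signal, and the WT HR count of ACLY-FLAG, 3 in place of 7 with the upper 50% of the list. Both settings keep fewer peaks. With the KO HR H3K27ac list cut to the same length by maximum signal, the count was 6, against 21.1% of all coding genes. A window of 5 kb counted 5, 7 and 9 genes for H3K27ac in normoxia, HR of WT and HR of KO, since Slc25a20 then counted in WT and Ehhadh in WT HR, against 24.7%, 32.9% and 41.1% of all coding genes. Counting only a peak over the promoter window, from 250 bases before to 50 past the start site, left every acetylation count as it was and gave 5 for ACLY-FLAG. Among all coding genes with such a window the shares were 17.5%, 25.5% and 32.4% for H3K27ac, 28.8%, 33.8% and 32.0% for H3K9ac and 9.82% for ACLY-FLAG. This alternative, and the cut of the KO HR lists to the length of the WT HR lists, were chosen after seeing the data. With the latter the KO HR counts were 6 for both marks, against 26.8% (H3K27ac) and 32.3% (H3K9ac) of all coding genes. No paired analysis was possible because each antibody and condition has 1 library, and the RNA tests with their alternatives (DESeq2, no filter, replicate block, each library left out, sums per gene) were not run. Depth is unknown, so a missing peak is one not detected in these lists.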

Other observations

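Genes that control the entry of carbon into these pathways were counted as well. Of 8 genes of the pyruvate dehydrogenase complex and its control beside Pdk4, 2 had H3K27ac in WT normoxia, 4 in WT HR and 5 in KO HR, and the same numbers had H3K9ac. Pdha1 and Pdk2 had both marks in HR of both genotypes and neither in WT normoxia. Dlat had H3K27ac in HR only and H3K9ac in every condition, and Pdk1 had H3K9ac in KO HR alone. Pdp2, a phosphatase that reverses Pdk4, had H3K27ac in WT normoxia and KO HR and not in WT HR. The genes for malonyl-CoA, the inhibitor of Cpt1a, had H3K27ac at 3 of 3 in every condition (Acaca, Acacb, Mlycd). Acacb had H3K9ac in KO HR alone and Mlycd, which degrades malonyl-CoA, in WT alone.

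Among 5 receptor genes for Fgf21 and related factors, Klb, the co-receptor for Fgf21, had both marks in every condition. Fgfr1 and Fgfr2 had H3K27ac in KO HR alone, Fgfr3 had H3K9ac only, and Fgfr4 had neither mark in any list.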
